A study of Mus musculus with 24 samples.

Results

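The tumour suppressor p53 and 9 genes around it (Trp53, Cdkn1a, Gadd45a, Ccng1, Mdm2, Bax, Bbc3, Aen, Trp53inp1 and Phlda3) were followed as a transcript-level check for atresia, the loss of ovarian follicles, in cultured mouse follicles. They were taken by gene symbol, 10 genes of the 78298 in each deposited table. All 10 passed the filter on low counts in granulosa cells and 9 passed it in oocytes, where Bbc3 did not.

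RNA sequencing covered 6 groups of 4 libraries, 24 in all, from wild-type follicles held in alginate gel to day 3 with FSH (follicle-stimulating hormone) at 50 mIU/ml. The granulosa cells, the somatic cells that surround the oocyte, came from follicles in 20 µM blebbistatin, a blocker of the motor protein myosin II, in dextran at 10 kPa, which compresses the follicle osmotically, or in control medium. Oocytes came from follicles under the same 3 treatments, with 1 to 2 oocytes pooled per library and far more cells per granulosa library. Follicles past 180 µm were taken apart mechanically, and whether controls received blebbistatin's solvent is not stated in the labels. The labels call the replicates biological without naming separate animals or cultures, so p-values measure the spread between these libraries.

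p53 is a transcription factor that stress stabilises mainly as a protein, so that its activity is usually read from its target genes and not from its own mRNA. Its targets stop the cell cycle (Cdkn1a, which encodes p21), repair or sense damage (Gadd45a), feed back on p53 (Mdm2, its ubiquitin ligase, and Ccng1) or promote cell death (Bax, Bbc3, Aen, Phlda3, Trp53inp1). Follicles undergoing atresia lose granulosa cells by apoptosis, while oocytes with DNA damage die largely through the p53 relative TAp63, a product of Trp63.

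p53 binds a pair of 10-base half-sites, and promoter windows, those of the members included, were searched for such a pair. The search covered 300-base windows from RefSeq (build GRCm38.p6), from 250 bases before to 50 after a gene's start, for the p53 response element consensus. The C and G at the core of each half-site were required and at most 2 of the 20 bases could be off. The consensus reads the same on both strands. It was present in 107 of 32851 windows (0.326%), among them windows of 2 of the 9 members in the table, Cdkn1a and Ccng1. The Trp53, Mdm2, Bax, Bbc3, Aen, Gadd45a and Phlda3 windows held no match, and neither did the other Cdkn1a window. Trp53inp1 was not searched. The Cdkn1a window, chr17:29090729-29091028 on the plus strand, and the Ccng1 window, chr11:40755237-40755536 on the minus strand, are shown 5′ to 3′ with the match in capitals, each 1 base off the consensus.
Cdkn1a: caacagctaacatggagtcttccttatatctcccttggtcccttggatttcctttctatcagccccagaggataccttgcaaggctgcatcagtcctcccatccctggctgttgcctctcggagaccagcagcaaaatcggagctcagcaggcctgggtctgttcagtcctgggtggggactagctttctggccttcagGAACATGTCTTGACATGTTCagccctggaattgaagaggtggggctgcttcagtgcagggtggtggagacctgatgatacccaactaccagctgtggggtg
Ccng1: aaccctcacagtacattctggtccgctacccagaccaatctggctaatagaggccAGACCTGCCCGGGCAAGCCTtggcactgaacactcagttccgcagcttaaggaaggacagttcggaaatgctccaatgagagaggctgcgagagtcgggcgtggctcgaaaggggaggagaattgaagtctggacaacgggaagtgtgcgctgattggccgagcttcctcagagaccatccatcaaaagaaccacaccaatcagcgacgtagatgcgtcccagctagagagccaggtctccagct

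Of 30 further p53 targets that were listed, 22 were in the promoter table and 2 held a match, each also 1 base off. These were Rps27l, a ribosomal protein gene induced by p53, at chr9:66946296-66946315, and Gtse1, which restrains p53 in the G2 phase, at chr15:85859945-85859964, both on the plus strand.
Rps27l: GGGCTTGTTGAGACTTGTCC
Gtse1: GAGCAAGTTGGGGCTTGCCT
A match describes these letters and does not show binding, and the count tables were made on another build, GRCm39, so the coordinates belong to the promoter table alone.

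The libraries held 16432298 to 22431013 estimated counts in granulosa cells and 14244103 to 18399551 in oocytes. The cell types matched their labels: the 12 oocyte markers summed to between 16100 and 27100 CPM, counts scaled to a common library size, in oocyte libraries and to at most 14.7 CPM in granulosa libraries. The 12 granulosa markers summed to between 155 and 1970 CPM in oocyte libraries and to between 11900 and 24100 CPM in granulosa libraries. Blebbistatin granulosa libraries 1 and 2 stood apart, with 594.5 and 922 CPM over 7 macrophage markers, against at most 10.02 CPM in the other granulosa libraries. Control oocyte libraries 1 and 2 stood apart in the mean log2(CPM + 1) of the granulosa markers, at 4.29 and 5.45, against 1.82 to 3.53 in the other oocyte libraries.

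In granulosa cells, neither treatment moved p53 or its targets past the test. Of the 10 genes, 0 passed an adjusted p of 0.05 (edgeR quasi-likelihood test, Benjamini-Hochberg) for blebbistatin against control, where 0.00651% of 15370 genes did. For dextran against control 0 of the 10 passed, where 0% of all genes did. At an unadjusted p of 0.05, Gadd45a was the 1 member under the threshold in each comparison, against 10.4% of all genes for blebbistatin and 3.40% for dextran. DESeq2 and limma voom also called 0 members in both. These comparisons share the 4 control libraries. The groups did not overlap for 0 members with blebbistatin, where 2.56% of all genes lay wholly above and 4.01% wholly below controls. With dextran 1 member lay wholly above and 0 below, where 2.60% and 2.09% of all genes did.

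Trp53 mRNA was level across the granulosa libraries. It measured 302, 244, 224 and 225 CPM (libraries 1 to 4) with blebbistatin, 239, 248, 296 and 254 CPM with dextran, and 240, 253, 228 and 251 CPM in controls. All 3 groups overlapped. The log2 change was 0.03 ± 0.108 (SE) for blebbistatin, with adjusted p = 0.952 by edgeR, and 0.10 ± 0.108 for dextran, with adjusted p = 1. In the count files, Trp53 reads may include those of its antisense neighbour Wrap53, since the strand of counting is not given.

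Cdkn1a, whose p21 protein inhibits cyclin-dependent kinases, differed several-fold between libraries of the same treatment. It measured 215, 80.9, 184 and 224 CPM with blebbistatin, 302, 144, 75.0 and 78.2 CPM with dextran, and 360, 114, 375 and 71.4 CPM in controls. Control libraries 1 and 3 and dextran library 1 were highest, control library 4 was lowest, and every pair of groups overlapped. The means were 176 ± 65.6 CPM with blebbistatin, 150 ± 106 CPM with dextran and 230 ± 160 CPM in controls (SD, n = 4 each). The log2 change was -0.39 ± 0.575 for blebbistatin (edgeR adjusted p = 0.862) and -0.62 ± 0.576 for dextran (edgeR adjusted p = 1).

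Gadd45a, a stress-induced gene of growth arrest and DNA repair, was the granulosa member with the smallest p-value for blebbistatin against control and for dextran against control. It measured 25.1, 7.77, 23.7 and 11.5 CPM with blebbistatin, 13.1, 18.8, 22.6 and 15.9 CPM with dextran, and 8.36, 8.06, 9.04 and 13.0 CPM in controls. All 4 dextran libraries lay above all 4 controls, by a narrow margin at the closest pair, while blebbistatin libraries 1 and 3 lay above and the other two within or below the control range. Blebbistatin libraries 1 and 3 also had the highest sum of 10 theca and stromal markers, at 1542 and 1038 CPM, against 404.5 and 419.8 CPM in blebbistatin libraries 2 and 4, 23.1 to 361 CPM with dextran and 24.97 to 375.6 CPM in controls. Of the 10 markers, 8 to 10 had a count in each blebbistatin library, 4 to 10 with dextran and 8 to 10 in controls. The mitochondrial share of counts was likewise highest in blebbistatin libraries 1 and 3, at 6.74% and 8.03%, against 3.38% and 4.94% in the other two, 2.96 to 4.23% with dextran and 2.24 to 4.03% in controls. The part of these in the Gadd45a values was not tested. The log2 change was 0.82 ± 0.374 for blebbistatin (edgeR adjusted p = 0.477). For dextran it was 0.88 ± 0.374 (edgeR adjusted p = 1). Without blebbistatin libraries 1 and 2, which carried macrophage transcripts, the blebbistatin value was 0.89 with adjusted p = 0.219 by edgeR.

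Ccng1, which encodes cyclin G1, was mostly high in the libraries that were high in Cdkn1a. It measured 492, 183, 267 and 250 CPM with blebbistatin, 496, 247, 165 and 193 CPM with dextran, and 426, 199, 486 and 146 CPM in controls. In each treatment 1 or 2 libraries stood well above the others, and no groups separated. Its log2 change was -0.08 ± 0.444 for blebbistatin and -0.19 ± 0.444 for dextran, within the standard error in both.

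Mdm2, which marks p53 for degradation, averaged 139 ± 27.6 CPM with blebbistatin, 124 ± 34.1 CPM with dextran and 99.0 ± 27.0 CPM in controls (SD, n = 4 each). By library it measured 144, 98.9, 159 and 155 CPM with blebbistatin, 171, 89.2, 116 and 118 CPM with dextran, and 119, 68.1, 124 and 84.9 CPM in controls. Library 2 was the lowest in all 3 groups, and the groups overlapped. The log2 change was 0.49 ± 0.236 for blebbistatin (edgeR adjusted p = 0.508) and 0.32 ± 0.236 for dextran (edgeR adjusted p = 1).

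Of the cell death genes, Bax, which permeabilises mitochondria, measured 193, 179, 220 and 246 CPM with blebbistatin, 278, 222, 192 and 222 CPM with dextran, and 300, 194, 296 and 212 CPM in controls. Its log2 changes were -0.26 ± 0.167 for blebbistatin and -0.13 ± 0.167 for dextran, and the groups overlapped. Aen, a nuclease that takes part in apoptosis, ranged from 82.1 to 118 CPM with blebbistatin, from 66.8 to 106 CPM with dextran and from 61.0 to 138 CPM in controls. Phlda3, which restrains the survival kinase Akt, ranged from 64.7 to 123 CPM with blebbistatin, from 31.7 to 120 CPM with dextran and from 41.2 to 149 CPM in controls. Trp53inp1, a stress-induced partner of p53, ranged from 18.9 to 71.1 CPM with blebbistatin, from 43.1 to 92.6 CPM with dextran and from 18.4 to 66.7 CPM in controls. The log2 changes of Aen, Phlda3 and Trp53inp1 lay between -0.42 and 0.28, and none passed.

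Bbc3, which encodes the BH3-only protein PUMA, was scarce. It had 0, 4, 30 and 2 counts with blebbistatin, 46, 60, 34 and 64 counts with dextran, and 72, 27, 57 and 6 counts in controls. Blebbistatin libraries 1, 2 and 4 lay below every control and dextran library, blebbistatin library 3 lay among them, and dextran and control overlapped. The means were 0.492 ± 0.753 CPM with blebbistatin, 2.62 ± 0.771 CPM with dextran and 1.89 ± 1.35 CPM in controls (SD, n = 4 each). The fitted log2 change came to -1.93 ± 1.09 for blebbistatin (edgeR adjusted p = 0.569). A count of 0 in the blebbistatin library allows up to 0.163 CPM.

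**Figure D1:**
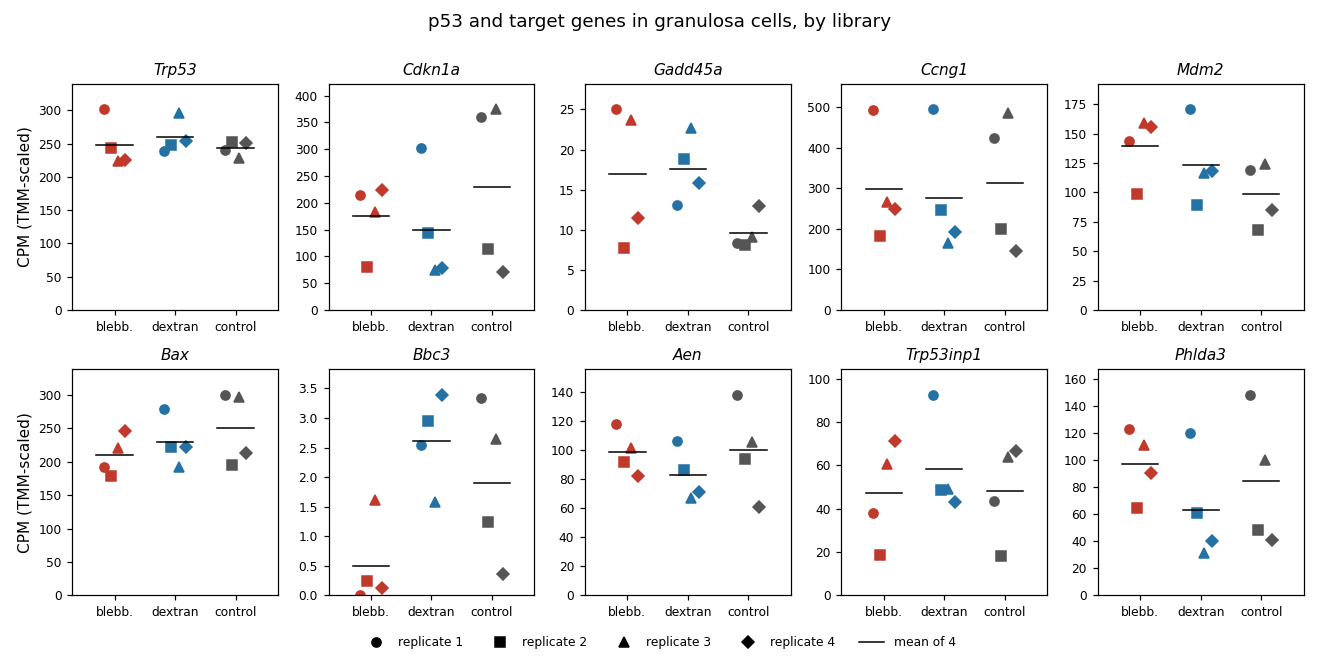
Level of each of the 10 genes in every granulosa cell library (vertical axis, TMM-scaled CPM, from 0) by treatment; each point is 1 library, its shape the replicate number, and the line the mean of 4. Trp53 stays between 224 and 302 CPM, while Cdkn1a spans 71.4 to 375 CPM with control libraries at both ends.

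The direct comparison of blebbistatin with dextran in granulosa cells called 0 of the 10 genes, where 0% of all genes were called (edgeR; 0 members at an unadjusted p of 0.05, against 8.84% of all genes). DESeq2 and limma voom called 0 members too. The smallest p belonged to Bbc3, with a log2 difference of -2.40 ± 1.11 (blebbistatin minus dextran; edgeR adjusted p = 0.571).

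**Figure D2:**
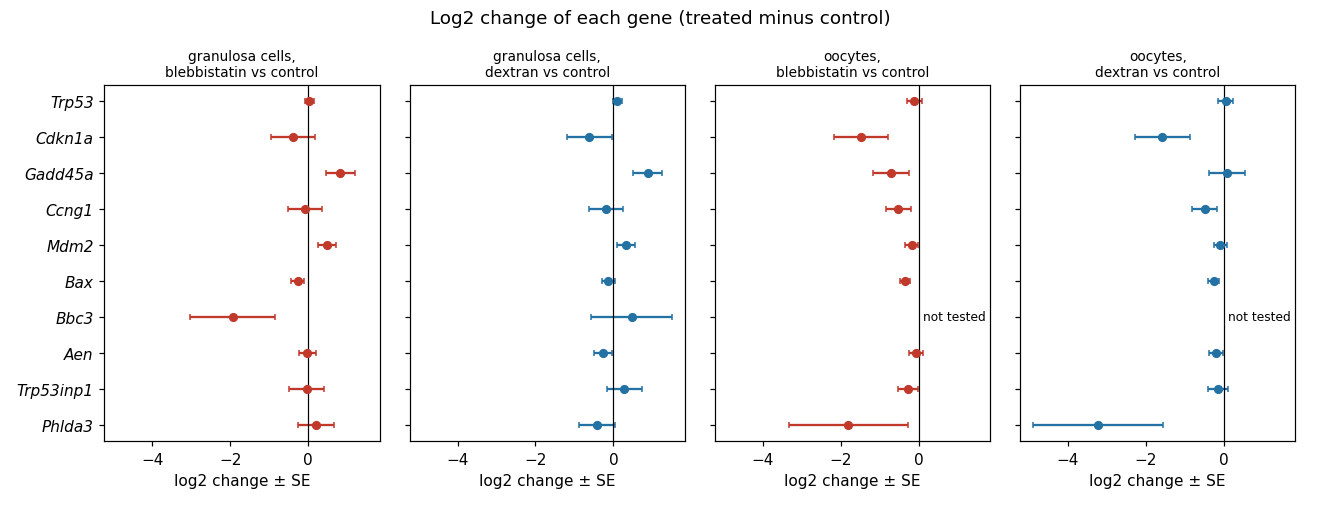
Log2 change (treated minus control, horizontal axis) with its standard error for each of the 10 genes in the 4 treatment comparisons; edgeR fits over 12 libraries per cell type. No change passed the adjusted threshold; the widest bars belong to oocyte Phlda3 (SE of 1.53 for blebbistatin and 1.67 for dextran), which has 0 to 76 counts per library, and to granulosa Bbc3 (SE of 1.09 for blebbistatin).

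What varied in granulosa cells was the level of several targets, between libraries of the same treatment. Treatment accounted for 6.53% of the variance of log2(CPM + 1) of Cdkn1a, 1.37% of that of Ccng1 and 19.4% of that of Phlda3, where the median of all genes was 19.4%. Within groups the SD of Cdkn1a was 0.961 on the log2 scale, against a median of 0.197 among the 1000 genes nearest to it in level, and higher than that of 99.8% of them. The SDs of Ccng1 (0.717), Phlda3 (0.729) and Trp53inp1 (0.738) were above those of 99%, 99% and 97% of genes of like level. Trp53 had a within-group SD of 0.146, above that of 30.4% of genes of like level.

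The libraries high in Cdkn1a were high in Ccng1, Phlda3, Aen and Bax. Over the 12 granulosa libraries Cdkn1a and Ccng1 had Pearson's r = 0.923 (permutation p = 0.00013, adjusted 0.00345) and Spearman's rho = 0.902 (permutation p = 0.00011, adjusted 0.00308). Phlda3 followed with r = 0.899 (permutation p = 0.00026, adjusted 0.00345) and rho = 0.839 (permutation p = 0.00093, adjusted 0.00868). Aen had r = 0.814 (permutation p = 0.00128, adjusted 0.00717) and rho = 0.811 (permutation p = 0.00236, adjusted 0.0165). These 3 genes encode a cyclin, an Akt antagonist and a nuclease.

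Bax had r = 0.802 with Cdkn1a (permutation p = 0.00209, adjusted 0.00975) and rho = 0.741 (permutation p = 0.00828, adjusted 0.0386). Without the 2 libraries farthest from the median of Cdkn1a, r was 0.888 for Ccng1, 0.915 for Phlda3, 0.794 for Aen and 0.782 for Bax. Taken as deviations from each treatment's mean, which removes treatment, r was 0.931 for Ccng1, 0.943 for Phlda3, 0.808 for Aen, 0.877 for Bax and 0.769 for Mdm2. Mdm2 over all 12 libraries had r = 0.564, which did not pass (permutation p = 0.0569, adjusted 0.114; rho = 0.657, permutation p = 0.0237, adjusted 0.083). All p-values were two-sided and adjusted over the 28 relations computed, and values of a library share its scaling.

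For Trp53 itself no rise with Cdkn1a was detected. Its r with Cdkn1a was -0.403 (permutation p = 0.204, adjusted 0.26) and its rho -0.587 (permutation p = 0.049, adjusted 0.106). Gadd45a, which many stress pathways induce, had r = -0.166 (permutation p = 0.594, adjusted 0.64), and its rho was -0.14 (permutation p = 0.667, adjusted 0.718). Trp53inp1 had r = 0.418 (permutation p = 0.182, adjusted 0.243; rho = 0.28, permutation p = 0.38, adjusted 0.484), and Bbc3 had r = 0.251 (permutation p = 0.423, adjusted 0.494; rho = 0.182, permutation p = 0.574, adjusted 0.643). These relations did not pass, which does not show that these genes vary apart from Cdkn1a.

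**Figure D3:**
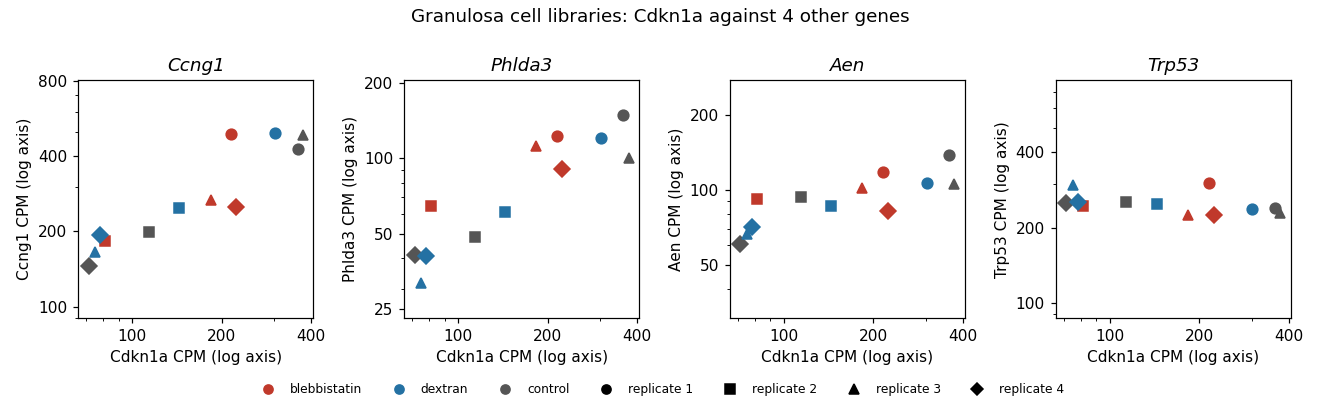
Cdkn1a (horizontal, CPM, log axis) against Ccng1, Phlda3, Aen and Trp53 (vertical, CPM, log axes of equal span) in the 12 granulosa cell libraries, coloured by treatment and shaped by replicate number. Over the 12 libraries Ccng1, Phlda3 and Aen climb with Cdkn1a (r of 0.923, 0.899 and 0.814), although the blebbistatin library with the most Cdkn1a (224 CPM) has the least Aen of its group (82.1 CPM), and Trp53 does not climb (r of -0.403).

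Over all 12 libraries, Bax passed the test of a relation to the level of granulosa markers. Cdkn1a, Ccng1, Phlda3 and Aen did not. The marker level was 6.77 to 7.21 (mean log2(CPM + 1) of the 12 markers) with blebbistatin, 6.78 to 7.98 with dextran and 7.14 to 8.29 in controls. Its r with Cdkn1a was 0.675 over all 12 libraries (permutation p = 0.0188, adjusted 0.0585; rho = 0.615, permutation p = 0.0377, adjusted 0.101), 0.379 without the 2 farthest libraries, and 0.858 as deviations from treatment means. Its r with Bax was 0.843 (permutation p = 0.00114, adjusted 0.00717; rho = 0.853, permutation p = 0.00082, adjusted 0.00868) and 0.646 without the 2 farthest. For Ccng1 r was 0.556 (permutation p = 0.0647, adjusted 0.121; rho = 0.406, permutation p = 0.191, adjusted 0.297), and 0.273 without the 2 farthest. For Aen r was 0.528 (permutation p = 0.0778, adjusted 0.136; rho = 0.385, permutation p = 0.219, adjusted 0.323), and 0.194 without them. For Phlda3 r was 0.447 (permutation p = 0.145, adjusted 0.213; rho = 0.308, permutation p = 0.331, adjusted 0.463), and 0.154 without them. Mdm2 had r = -0.0015 (permutation p = 0.996, adjusted 0.996; rho = 0.0629, permutation p = 0.852, adjusted 0.852). As deviations from treatment means, r with the marker level was higher for most of them. It was 0.845 for Bax, 0.754 for Ccng1, 0.768 for Aen, 0.85 for Phlda3 and 0.6 for Mdm2, values that were not tested. The part of the marker level in the shared variation of the p53 targets was not tested. In bulk RNA, fewer cells with a transcript and less of it per cell cannot be told apart.

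The pattern extended to p53 targets outside the 10 genes. Of the 30 other targets, 15 (50%) had r over 0.5 with Cdkn1a in granulosa cells, and their median r was 0.512. Over all 15369 other genes tested, 4.6% had r over 0.5 and the median was -0.0358. Among the 12 granulosa markers, 6 (50%) also had r over 0.5, with a median of 0.428. A high share over 0.5 was thus not particular to p53 targets. Zmat3, an RNA-binding p53 target, had r = 0.897, Eda2r, a receptor of the TNF family, 0.872, Polk, a DNA polymerase for damaged templates, 0.867, Plk2, a stress-induced kinase, 0.817, and Apaf1, the apoptosome core, 0.809. Sesn1, a sestrin that also answers to FoxO factors, ran the other way, with r = -0.765. These 6 were chosen after their values were seen, and the list of 30 was chosen with earlier results of these data known. The r values over 12 libraries are descriptions, and genes are not independent of each other.

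Lists of the apoptosis machinery lay nearer to the median of all genes. The median r with Cdkn1a was 0.0731 for 13 genes of the BCL2 family with 1 over 0.5, -0.00629 for 19 of the caspase pathway with 1 over 0.5, 0.123 for 10 of the death receptor pathway with 2 over 0.5, and 0.0753 for 7 genes linked to atresia with 2 over 0.5. Those over 0.5 in the BCL2, caspase and death receptor lists were Pmaip1, Apaf1, Fas and Tnfrsf10b, which are also listed as other p53 targets. In the atresia list they were Fas again and Foxo3. The p53 family and regulators had a median of 0.129 over 12 genes with 1 over 0.5, and GADD45 and CDK inhibitor genes had 0.0686 over 6 with 0 over 0.5. Ranked by r, the 3 genes nearest to Cdkn1a among 10173 in granulosa cells were Dcxr, an L-xylulose reductase, at r = 0.936, Gm2044 at 0.929 and Ccng1 at 0.923.

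**Figure D4:**
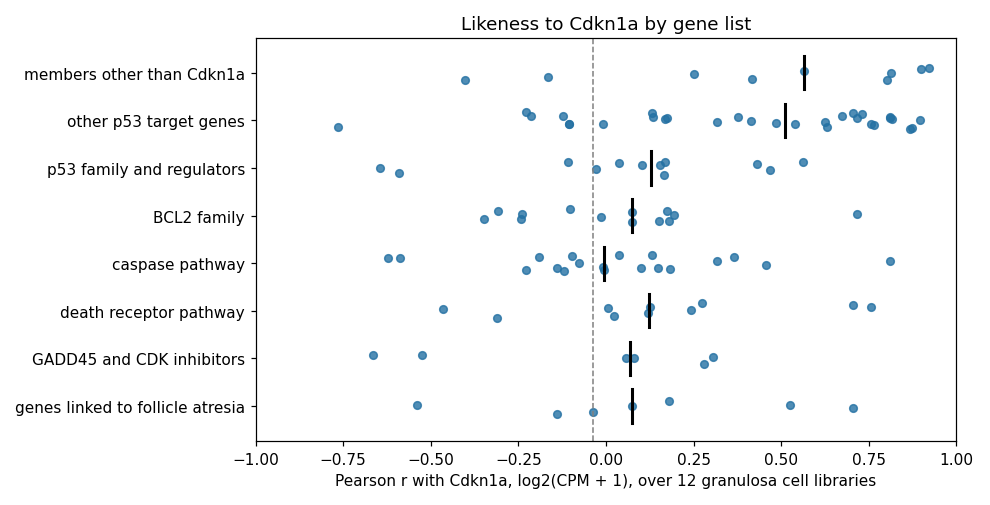
Pearson r of each listed gene with Cdkn1a over the 12 granulosa cell libraries (horizontal axis); points are genes, black bars list medians and the dashed line the median of all genes (-0.0358). The medians of the other members (0.564) and the other p53 targets (0.512) lie to the right of those of the apoptosis lists (-0.00629 to 0.123). The granulosa markers, with a median of 0.428, are not drawn.

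In oocytes no treatment change of p53 or its targets passed. For blebbistatin against control 0 of the 9 genes tested passed (edgeR), where 0% of 16749 genes did. For dextran 0 of 9 passed, where 0% did. At an unadjusted p of 0.05, 1 member passed in each, Bax for blebbistatin (4.10% of all genes) and Cdkn1a for dextran (5.31%). DESeq2 and limma voom called 0 members in either. The 4 control libraries are again shared.

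Bax was the oocyte member whose groups did not overlap. It measured 24.4, 26.5, 29.4 and 27.6 CPM with blebbistatin, 32.1, 29.2, 28.0 and 25.9 CPM with dextran, and 33.1, 37.0, 35.2 and 32.6 CPM in controls. Every treated library lay below every control, as did 1.41% of all genes for blebbistatin and 1.18% for dextran. No member lay wholly above controls, where 1.18% of all genes did for blebbistatin and 1.23% for dextran. On the log2 scale the change was -0.36 ± 0.133 for blebbistatin (edgeR adjusted p = 1) and -0.27 ± 0.133 for dextran (edgeR adjusted p = 0.935). Without control libraries 1 and 2 the values were -0.33 for blebbistatin and -0.24 for dextran. The within-group SD of Bax, 0.107, was above that of only 0.3% of genes of like level.

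Cdkn1a was scarce in oocytes. It measured 5.63, 0.550, 1.30 and 1.78 CPM with blebbistatin, 2.45, 2.21, 2.99 and 1.08 CPM with dextran, and 15.5, 5.39, 3.40 and 1.69 CPM in controls. Control library 1 was the highest and the groups overlapped. Its log2 change was -1.47 ± 0.692 for blebbistatin (edgeR adjusted p = 1) and -1.58 ± 0.696 for dextran (edgeR adjusted p = 0.901). Without control libraries 1 and 2, which held the most granulosa transcripts, these values were -0.12 for blebbistatin and -0.22 for dextran.

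Phlda3 and Ccng1 were highest in the same control oocyte libraries. Phlda3 had 20, 0, 18 and 0 counts with blebbistatin, 13, 0, 0 and 0 counts with dextran, and 61, 76, 4 and 0 counts in controls. Its fitted log2 changes, -1.81 ± 1.53 for blebbistatin and -3.24 ± 1.67 for dextran, rest on these few counts. Ccng1 measured 8.88, 9.36, 11.3 and 12.4 CPM with blebbistatin, 11.0, 8.19, 7.62 and 16.2 CPM with dextran, and 18.9, 22.7, 7.85 and 10.7 CPM in controls. Without control libraries 1 and 2, the log2 change of Ccng1 turned to 0.18 with blebbistatin and 0.21 with dextran, and that of Phlda3 to 2.18 with blebbistatin and 0.76 with dextran.

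Across the 12 oocyte libraries, Phlda3 followed the granulosa marker level with r = 0.899 (permutation p = 0.00037, adjusted 0.00345) and rho = 0.784 (permutation p = 0.00439, adjusted 0.0246). Without the 2 libraries farthest in marker level, r was 0.665. Ccng1 had r = 0.786 (permutation p = 0.00364, adjusted 0.0146; rho = 0.615, permutation p = 0.0365, adjusted 0.101), which fell to 0.238 without those 2 libraries and so rests on them. Trp53inp1 had r = 0.673 (permutation p = 0.0142, adjusted 0.0497; rho = 0.72, permutation p = 0.0108, adjusted 0.0432), and 0.401 without the 2. Cdkn1a had r = 0.662 (permutation p = 0.0254, adjusted 0.0711) and rho = 0.455 (permutation p = 0.14, adjusted 0.231), and did not pass. Mdm2, higher in oocytes than in granulosa cells, had r = 0.606 (permutation p = 0.0294, adjusted 0.0716). Its rho was 0.608 (permutation p = 0.0398, adjusted 0.101), and neither passed. Aen (r = 0.48), Bax (0.443), Gadd45a (0.34) and Trp53 (-0.117) did not pass either.

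Cdkn1a in oocyte libraries was not in a fixed ratio to Inha, the inhibin gene that granulosa cells express strongly. It stood at 28.1, 10.3, 27.9 and 109 counts per 1000 Inha counts with blebbistatin, 103, 479, 3769 and 27.0 with dextran, and 56.1, 3.67, 91.2 and 134 in controls. Granulosa libraries ranged from 4.39 to 22.5, and 10 of 12 oocyte libraries lay above that range. Control oocyte library 2, which had the most Inha at 1471 CPM, lay below it. Inha was at 16.35 to 200.3 CPM with blebbistatin, 0.7925 to 39.88 CPM with dextran and from 12.57 CPM upward in controls. Ratios over so little Inha are imprecise. For Ccng1 the oocyte medians were 208.4, 1118 and 139.6 (blebbistatin, dextran, control), against granulosa medians of 22, 15.44 and 19.58. For Phlda3 the oocyte medians were 2.896, 0 and 4.682, against granulosa medians of 8.634, 3.58 and 4.275.

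The other oocyte members overlapped between treatments. Trp53 ranged from 44.4 to 60.4 CPM with blebbistatin, from 47.4 to 88.9 CPM with dextran and from 52.2 to 61.1 CPM in controls. Mdm2 averaged 147 ± 18.3 CPM with blebbistatin, 157 ± 37.6 CPM with dextran and 167 ± 25.7 CPM in controls (SD, n = 4 each). Aen averaged 31.9 ± 6.37 CPM with blebbistatin, 29.0 ± 3.05 CPM with dextran and 33.4 ± 5.71 CPM in controls. Trp53inp1 averaged 44.5 ± 11.0 CPM with blebbistatin, 48.8 ± 15.6 CPM with dextran and 53.9 ± 16.7 CPM in controls. Gadd45a was at 0.650 to 2.20 CPM with blebbistatin, 1.30 to 3.23 CPM with dextran and 1.20 to 2.80 CPM in controls. None of these 5 genes had an unadjusted p under 0.05 by edgeR.

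Bbc3 was at 0 counts in 10 of the 12 oocyte libraries, with 5 counts in blebbistatin library 1 and 1 count in control library 2. A count of 0 in an oocyte library allows up to 0.211 CPM, at counting error alone. Bbc3 was therefore not tested for treatment in oocytes.

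**Figure D5:**
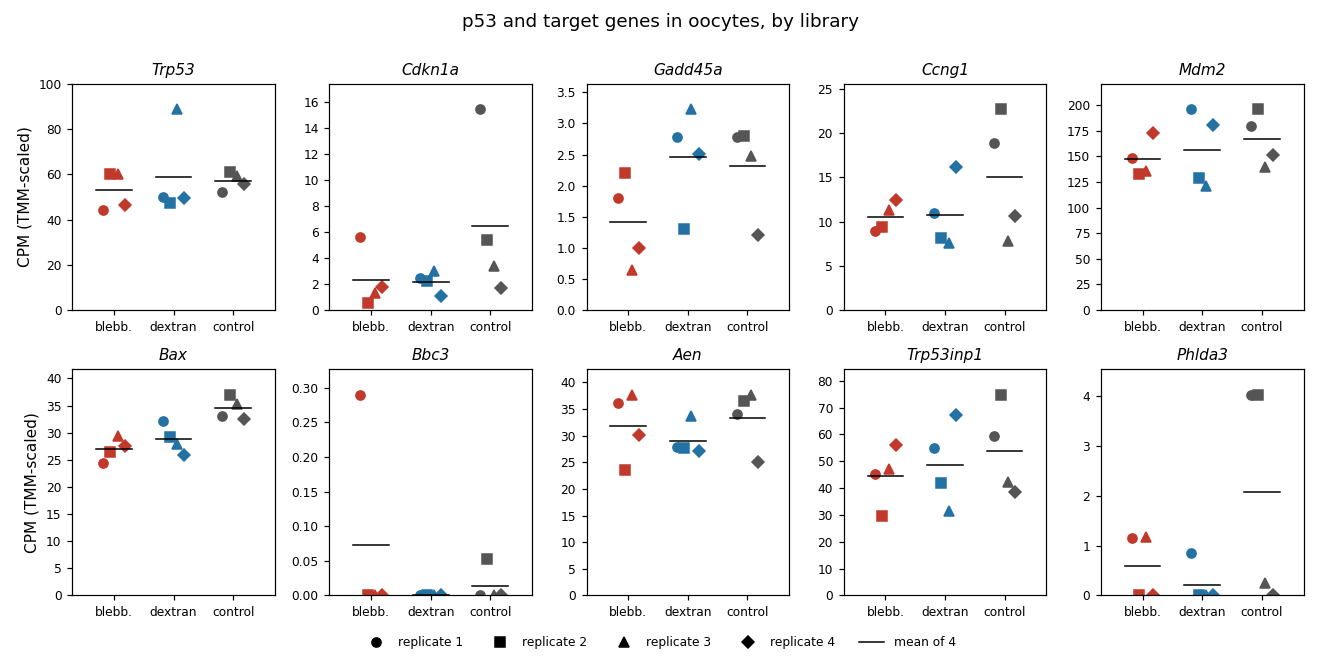
Level of each of the 10 genes in every oocyte library (vertical axis, TMM-scaled CPM, from 0) by treatment; each point is 1 library, its shape the replicate number, and the line the mean of 4. Bax in blebbistatin (24.4 to 29.4 CPM) and dextran oocytes (25.9 to 32.1 CPM) lies below controls (32.6 to 37.0 CPM), and control libraries 1 and 2 hold the highest Phlda3 and Ccng1.

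Blebbistatin against dextran in oocytes called 0 of 9 genes, where 0% of all genes were called (edgeR; 0 members at an unadjusted p of 0.05, against 4.07% of all genes; 0 members by DESeq2 and limma voom). An interaction term in the fit of all 24 libraries tested whether oocytes and granulosa cells responded differently. For blebbistatin 0 of 10 genes passed, where 0.0485% of 20601 genes did. Gadd45a (difference in log2 change, oocytes minus granulosa cells, -1.63 ± 0.618, edgeR adjusted p = 0.337) and Mdm2 (-0.75 ± 0.334, edgeR adjusted p = 0.407) were the 2 members at an unadjusted p under 0.05, where 11.3% of all genes were. For dextran 0 of 10 passed, where 0% did, with 0 members at an unadjusted p under 0.05 and 9.28% of all genes. DESeq2 and limma voom called 0 members in both interactions.

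The widest differences lay between the cell types. In control oocytes against control granulosa cells, 8 of the 10 genes were lower and Mdm2 was higher, all past the edgeR threshold, where 32.9% of 20601 genes were lower, 44.4% higher and 77.3% called in all. The groups did not overlap for these 9, as for 33.1% of genes in the lower and 43.1% in the higher direction. Levels here are relative to each library's total, and the median log2 difference of all genes was 0.41.

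Cdkn1a averaged 7.60 CPM in oocytes and 212 CPM in granulosa cells, on the scaling shared by all 24 libraries, a log2 difference of -4.76 ± 0.787 (edgeR adjusted p = 1.61e-05). Ccng1 averaged 17.7 CPM in oocytes and 290 CPM in granulosa cells (log2 difference -3.99 ± 0.487, edgeR adjusted p = 2.94e-07). Phlda3 averaged 2.54 CPM in oocytes and 78.1 CPM in granulosa cells (log2 difference -4.91 ± 1.07, edgeR adjusted p = 0.000337). These 3 genes, which covaried in granulosa cells, had the lowest log2 differences of the 10 apart from Bbc3. Without control oocyte libraries 1 and 2 the log2 differences were -6.27 for Cdkn1a, -4.85 for Ccng1 and -9.12 for Phlda3, still past the threshold.

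Bax (-2.51 ± 0.16, edgeR adjusted p = 1.4e-11), Trp53 (-1.73 ± 0.17, edgeR adjusted p = 1.15e-08), Gadd45a (-1.68 ± 0.442, edgeR adjusted p = 0.00187) and Aen (-1.22 ± 0.229, edgeR adjusted p = 7.22e-05) were lower in oocytes on the log2 scale. Bbc3 was also called lower, with 0, 1, 0 and 0 counts in control oocytes and 72, 27, 57 and 6 in control granulosa cells. Mdm2 averaged 192 CPM in oocytes and 91.4 CPM in granulosa cells (log2 difference 1.12 ± 0.239, edgeR adjusted p = 0.000283). Without control oocyte libraries 1 and 2 its difference was 0.81. Trp53inp1 did not pass, at 62.8 CPM in oocytes and 44.5 CPM in granulosa cells (log2 difference 0.54 ± 0.416, edgeR adjusted p = 0.24).

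Ordered over the 6 groups by mean CPM within each cell type's own scaling, all members but Mdm2 and Trp53inp1 were higher in all 3 granulosa groups than in any oocyte group. For Cdkn1a the order was control (230 CPM), blebbistatin (176 CPM) and dextran (150 CPM) granulosa cells, then control (6.49 CPM), blebbistatin (2.31 CPM) and dextran (2.18 CPM) oocytes. Neighbours within a cell type overlapped, and the step between cell types did not.

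Among the lists around p53, 0 genes passed in any treatment comparison by edgeR. Of 30 other p53 targets, 16 had a positive log2 change for blebbistatin in granulosa cells, with a median of 0.05 against -0.05 over all genes. For dextran 12 of 30 were positive, with a median of -0.05 against -0.00374 over all genes. In oocytes 8 of 27 were positive for blebbistatin and 12 of 27 for dextran. Over all genes, 8136 of 16749 were positive for blebbistatin and 8459 of 16749 for dextran in oocytes. In granulosa cells 6972 of 15370 and 7606 of 15370 were. Of the members, 0 of 9 were positive for blebbistatin and 2 of 9 for dextran in oocytes. In granulosa cells 4 of 10 and 5 of 10 were. Several of the oocyte signs turned without control libraries 1 and 2. In granulosa cells with blebbistatin, the smallest p-value in each direction belonged to Plk3, a stress kinase, and to Ei24. Plk3 was at 2.36 ± 0.867 (edgeR adjusted p = 0.367) and Ei24 at -0.57 ± 0.214 (edgeR adjusted p = 0.373), and neither passed. With dextran the smallest in each direction were those of Perp, a membrane protein of p53-driven death, at 0.69 ± 0.375, and Psrc1 at -0.53 ± 0.404, both with edgeR adjusted p = 1.

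In the apoptosis machinery of granulosa cells, 7 of 13 BCL2 family genes had a positive log2 change with blebbistatin and 7 of 13 with dextran, as did 6 of 19 caspase pathway genes with blebbistatin and 8 of 19 with dextran. Over all genes, 6972 of 15370 were positive with blebbistatin and 7606 of 15370 with dextran. The genes of smallest p in their direction did not pass. With blebbistatin, Casp2, an initiator caspase, had a log2 change of -0.55 ± 0.139 (edgeR adjusted p = 0.2), and Bcl2l1, which encodes the survival protein BCL-XL, 0.68 ± 0.237 (edgeR adjusted p = 0.332). Foxo1, a transcription factor linked to granulosa cell death, averaged 221 CPM with blebbistatin and 279 CPM in controls (log2 change -0.34 ± 0.0947, edgeR adjusted p = 0.232). With dextran, Casp6, an effector caspase, averaged 240 CPM against 149 CPM in controls (log2 change 0.69 ± 0.156, edgeR adjusted p = 0.614). Gadd45b, a relative of Gadd45a, averaged 87.5 CPM with dextran and 31.3 CPM in controls (log2 change 1.50 ± 0.501, edgeR adjusted p = 1), and Pik3ip1, an inhibitor of PI3-kinase, 100 CPM with dextran and 39.4 CPM in controls (1.35 ± 0.579, edgeR adjusted p = 1).

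In oocytes, Bok, a BAX-like member of the BCL2 family, had the smallest p of its list under both treatments and passed in neither. It averaged 1.94 ± 1.56 CPM with blebbistatin, 0.519 ± 0.482 CPM with dextran and 11.8 ± 15.9 CPM in controls (SD, n = 4 each). The control SD was thus larger than the control mean. The log2 changes were -2.60 ± 1.04 for blebbistatin (edgeR adjusted p = 1) and -4.49 ± 1.17 for dextran (edgeR adjusted p = 0.857). Bok averaged 164 CPM with blebbistatin, 207 CPM with dextran and 228 CPM in controls in granulosa cells, and the part of the granulosa transcripts in control oocyte libraries 1 and 2 was not tested.

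Between the cell types, 77.3% of all genes were called, 44.4% higher and 32.9% lower in oocytes, and each list's counts are read against those shares. Of 13 p53 family members and regulators tested, 8 were higher and 3 lower in control oocytes than in control granulosa cells. Mdm4, the partner of Mdm2 that holds p53 inactive, averaged 1830 CPM in oocytes and 48.8 CPM in granulosa cells (log2 difference 5.27 ± 0.308, edgeR adjusted p = 3.6e-12). Chek1, the checkpoint kinase, averaged 467 CPM in oocytes and 34.1 CPM in granulosa cells, and Trp53bp1 averaged 374 CPM in oocytes and 51.5 CPM in granulosa cells. Chek2, Ep300 and Atm were lower, at 4.82, 9.05 and 6.12 CPM in oocytes and 32.0, 24.8 and 21.5 CPM in granulosa cells.

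Of 14 BCL2 family genes, 3 were higher in oocytes and 6 lower. Bcl2l10 averaged 3650 CPM in oocytes and 0.523 CPM in granulosa cells (log2 difference 12.78 ± 1.14, edgeR adjusted p = 2.73e-09). Bcl2l1 (268 CPM in oocytes and 46.2 CPM in granulosa cells) and Bik (24.5 CPM in oocytes and 0.344 CPM in granulosa cells) were also higher. Mcl1, Bad and Bid were lower, at 7.19, 5.08 and 5.25 CPM in oocytes and 33.0, 36.5 and 38.5 CPM in granulosa cells.

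Of 19 caspase pathway genes, 3 were higher in oocytes and 13 lower. Birc3, an inhibitor of apoptosis, averaged 802 CPM in oocytes and 6.71 CPM in granulosa cells (log2 difference 6.95 ± 0.496, edgeR adjusted p = 8.67e-11), and Birc5, or survivin, 603 CPM in oocytes and 127 CPM in granulosa cells. Parp1, Diablo and Xiap were lower in oocytes. Of 10 death receptor genes 3 were higher (Fadd, Ripk1, Tnfrsf21) and 4 lower, among them Tnfrsf1a, the TNF receptor, at 1.43 CPM in oocytes and 41.2 CPM in granulosa cells. Of 7 GADD45 and CDK inhibitor genes 1 was higher and 3 lower, and of 7 genes linked to atresia 1 was higher, Foxo3, at 121 CPM in oocytes and 19.6 CPM in granulosa cells, and 3 were lower.

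Of 30 other p53 targets, 10 were higher in oocytes and 14 lower, a total near the 77.3% of all genes called. Rrm2b, a p53-induced subunit of ribonucleotide reductase, averaged 233 CPM in oocytes and 9.24 CPM in granulosa cells (log2 difference 4.71 ± 0.408, edgeR adjusted p = 1.84e-09). Tigar and Psrc1 were also higher, at 80.6 and 300 CPM in oocytes and 8.13 and 49.3 CPM in granulosa cells. Sesn1, Sesn2 and Rps27l were lower, at 4.70, 10.8 and 164 CPM in oocytes and 57.8, 52.6 and 359 CPM in granulosa cells.

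Among oocyte libraries, the 27 other targets tested had a median r of -0.0518 with Cdkn1a, and 7.41% had r over 0.5, where 5.98% of all genes did. Nearest to Cdkn1a among 10024 genes were Eif3a, a translation initiation factor subunit, at r = 0.888 and Cyb5r3, a cytochrome b5 reductase, at 0.872. Oocyte libraries held 8 to 234 Cdkn1a counts, and the within-group SD of Cdkn1a was 0.851 on the log2 scale. That was above the SD of 90.6% of the 1000 genes nearest in level among those averaging at least 5 CPM. Cdkn1a averaged 2.31 CPM with blebbistatin, 2.18 CPM with dextran and 6.49 CPM in controls. Over all oocyte libraries those genes were thus more abundant, and not of like level. The difference between the cell types in r was not tested.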

How the data were processed

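RNA sequencing measured 24 libraries. The authors deposited 1 table per cell type of salmon's estimated counts, as the labels state. Per the submitters' processing notes the build was GRCm39; the salmon version, annotation and strandedness are not given in the sources here. Salmon divides reads shared between genes, so that estimated counts of Trp53, Mdm2, Cdkn1a, Gadd45a, Aen and Bax were not whole in some libraries. The cDNA was amplified over 15 PCR cycles without stated molecular identifiers, so depth bounds counting error only.

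Counts were rounded, filtered with filterByExpr and scaled with TMM factors. Each cell type was fitted over its 12 libraries with edgeR 4.0.16 in R 4.3.3 (glmQLFit with robust estimation, glmQLFTest), and both together for differences between cell types. Benjamini-Hochberg adjustment ran over all genes tested (15370, 16749 and 20601), at a threshold of 0.05. SE are those of the log2 change. DESeq2 1.42.0, limma 3.58.1 (voom), RLE scaling, no filter, a replicate block, only the groups compared, and leaving out libraries were alternatives. Steps were tested on simulated data. Correlations used log2(CPM + 1) and 100000 permutations; CPM values, marker levels included, are TMM-scaled. The smallest chi-square per gene between replicates of a group was 12.4, so no library duplicated another of its group. Libraries of different groups were not compared in this way. Ddit3 has 2 entries, of which the more abundant was used.

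The members and gene lists were chosen with earlier results of these data known. All members are named. Of other lists, genes named are those that passed, or the 1 per direction of smallest p with a mean of at least 1 CPM, of which the text gives a part. Between cell types they are up to 3 per direction with a mean of at least 5 CPM, and nearest to Cdkn1a the 3 highest r at 5 CPM; some genes under these rules are not reported here.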

Additional observations from a re-analysis of the deposited data

Results flagged for a closer look

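In 7 groups of 4 libraries, 1 library lay far from the other three by Dixon's ratio of gap to range, which chance gives in about 1 of 20 groups. All 10 genes were examined in each of the 6 groups, apart from Bbc3 in dextran oocytes, where every library was at 0. With that many sets, some are due by chance alone. In 3 of the 7 the other three libraries were all at 0, which fixes the ratio at its highest value, so these are descriptions only. Trp53inp1 was at 92.6 CPM in dextran granulosa library 1, against 43.1 to 49.0 CPM in the other three. Bbc3 was at 1.61 CPM in blebbistatin granulosa library 3, against at most 0.236 CPM in the others.

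In oocytes, Trp53 was at 88.9 CPM in dextran library 3, against 47.4 to 50.0 CPM in the others, and Aen at 33.6 CPM in the same library, against 27.0 to 27.8 CPM. Phlda3 was at 0.86 CPM in dextran library 1 and at 0 in the other three. Bbc3 was at 0.29 CPM in blebbistatin library 1 and at 0.0528 CPM in control library 2, with 0 in the other libraries of each group. The control value is 1 count, which is under the limit of 3 counts that a count of 0 allows.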

How the results depend on the processing

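The counts of members called kept their values under every alternative run, 0 in the 6 treatment comparisons and both interactions and 9 between cell types, including the fit with the replicate block. Deviations from group means correlated from -0.184 to 0.316 over 12 same-numbered granulosa pairs, 4 of them over 0.1. Over 12 oocyte pairs they correlated from -0.125 to 0.178, with 3 over 0.1. The highest pair was granulosa control library 1 with dextran library 1. Pairs of unlike number were not computed for reference, so whether same-numbered libraries shared a batch was not tested. The labels give no basis for the block. Of 1031 recomputed log2 changes, 37 turned direction, in 19 of 48 values, and 0 changed their call; the cause was not tested. Blebbistatin in granulosa cells: Aen was 0.00639 under limma voom and 0.0145 under the replicate block, Trp53 -0.10 and Trp53inp1 0.46 without blebbistatin libraries 1 and 2. Leaving out this pair, and that of control oocyte libraries 1 and 2, was chosen after seeing the data. Oocytes: Trp53 with dextran was -0.00503 under limma voom; without control libraries 1 and 2, Ccng1 was 0.18 and 0.21, Mdm2 0.0173 and 0.0995, Trp53inp1 0.13 and 0.26 and Phlda3 2.18 and 0.76 with blebbistatin and dextran, and Aen 0.0227 with blebbistatin.

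Without 1 library at a time, changes that turned ranged as follows. Granulosa cells with blebbistatin: Trp53 -0.0629 to 0.0737, Ccng1 -0.41 to 0.23, Aen -0.18 to 0.19, Trp53inp1 -0.31 to 0.24, Phlda3 -0.00479 to 0.64. Granulosa cells with dextran: Ccng1 -0.63 to 0.10, Trp53inp1 -0.0284 to 0.48, Phlda3 -0.92 to 0.0053. Oocytes: Aen -0.17 to 0.059 with blebbistatin, and with dextran Trp53 -0.22 to 0.14, Gadd45a -0.13 to 0.30, Mdm2 -0.21 to 0.0162 and Trp53inp1 -0.33 to 0.0487. Adjusted p of Gadd45a ranged over the alternatives from 0.158 to 0.746 with blebbistatin and from 0.35 to 1 with dextran in granulosa cells, that of oocyte Bax from 0.59 to 1 with blebbistatin and from 0.697 to 1 with dextran, and that of oocyte Cdkn1a with dextran from 0.482 to 1.

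Counts over all genes moved more. DESeq2 called 377 genes against 1 for blebbistatin and 42 against 0 for dextran in granulosa cells, 214 against 0 between them, 16 and 4 against 0 in oocytes, and 382 against 10 and 243 against 0 in the interactions. Without 1 library edgeR called 0 to 115 for blebbistatin and 0 to 4 for dextran in granulosa cells, and 2 to 103 and 0 to 91 in the interactions; without blebbistatin libraries 1 and 2 it called 26. In oocytes, Bbc3 was at 0 counts in 10 of 12 libraries and did not pass the filter on low counts. Cdkn1a had a within-group SD of 0.851 on the log2 scale there, and its change with blebbistatin was -1.47 in all libraries and -0.12 without control libraries 1 and 2.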

Other observations

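Of the 20 genes nearest to Cdkn1a in granulosa cells, with r from 0.824 upward, 5 belonged to the 39 other p53 members and targets listed, where 10173 genes were compared. In oocytes 0 of the nearest 20 did. The other neighbours in granulosa cells were read after their values were seen. They included Slc2a1, the glucose transporter GLUT1, at r = 0.921, and Ak1, an adenylate kinase, at 0.919. P4ha1, a collagen prolyl hydroxylase, was at 0.865, Hif1a, the oxygen-responsive transcription factor, at 0.858, and Kdm6b, a histone demethylase, at 0.824. The rest were Dcxr, Gm2044, Slc66a3, Mamld1, Ralb, Thyn1, Dglucy, Cpt1c, Ppwd1 and H2aj. A common theme of these neighbours was not tested. In oocytes the nearest 20 included Inhba at 0.746 and Inhbb at 0.74, both among the granulosa markers, of which 7 of 11 tested (63.6%) had r over 0.5 with Cdkn1a.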
